A study of Mus musculus with 4 samples.

Results

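The genes of the constitutive proteasome were examined in mouse mammary macrophages, with 1 expression array for each of 4 groups. Members were all probe sets that name exactly 1 gene and whose symbol begins with Psma, Psmb, Psmc, Psmd, Psme or Psmf and a number, without the 3 immunoproteasome subunits Psmb8, Psmb9 and Psmb10. The rule uses gene symbols alone, and it took 77 of the 20380 probe sets that name 1 gene, which stand for 41 of 12393 genes. It also took Psmc3ip and Psme3ip1, whose products are not proteasome subunits and which are given apart. Psme2, an activator subunit, was left out because its probe set also names Psme2b. That shared probe set read 10.55 and 10.41 log2 units on the Ets2-deficient and Ets2-expressing tumor arrays, and 10.07 and 10.20 on the Ets2-deficient and Ets2-expressing remodeling arrays.

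The first group is tumor-associated macrophages with 2 copies of Ets2 deleted, from early-stage mammary tumors induced by PyMT, the polyoma middle T oncogene. Its counterpart, named wild type in 1 label and as holding 1 copy of Ets2 in another, is called Ets2-expressing here. The other 2 groups are macrophages of remodeling glands without a tumor, 1 with 2 copies of Ets2 deleted and 1 wild type. Mice of all 4 groups carried YFP in their macrophages, and YFP-positive cells were sorted. Ets2 is an ETS-family transcription factor. The labels do not name the Cre driver, the deleted exons, the strain, the age or the number of animals behind each RNA sample. With 1 array per group there is no replicate check and no test, and "higher" and "lower" describe these arrays only.

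The proteasome is the barrel-shaped protease that degrades ubiquitin-tagged proteins in the cytosol and the nucleus. Its core particle stacks rings of alpha subunits (Psma), which gate the entrance, on rings of beta subunits (Psmb), some of which cut peptide bonds. A regulatory particle caps the barrel: its base holds a ring of ATPases (Psmc), which unfold the substrate, and non-ATPase subunits (Psmd) of the base and lid bind ubiquitin chains and remove them. Macrophages use the proteasome to turn over signalling proteins such as inhibitors of NF-kappa-B and to make peptides for MHC class I, and interferon replaces the catalytic beta subunits with the immunoproteasome forms.

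Values are log2 expression, and the medians of the arrays were 6.30 (tumor, Ets2-deficient), 6.22 (tumor, Ets2-expressing), 5.98 (remodeling, Ets2-deficient) and 6.17 (remodeling, Ets2-expressing). The single Ets2 probe set read 12.67, 12.77, 12.97 and 13.24 in that order, so it was bright on the arrays labelled Ets2-deficient too, and it checks the labels only if it lies inside the deleted part. Macrophage markers were bright on every array, 14 of 15 counting as bright, and their summed linear signal was 66800, 70900, 71000 and 71100. Other signals moved between the arrays: the summed linear signal of 12 mammary epithelial markers was 19600, 10600, 449 and 833 (2 and 3 of them below the 25th percentile of the remodeling arrays), that of 6 neutrophil markers 17100, 6380, 8950 and 13400, that of 7 fibroblast markers 10100, 10100, 5910 and 20500, and that of 6 proliferation genes 5320, 3760, 5660 and 3190. In the Actb control probe sets, the 3' value less the 5' value, a measure of RNA integrity and amplification length, was 3.54, 3.30, 2.96 and 2.72 log2 units, higher on the tumor arrays. The part of other cell types and of RNA quality in the differences given here was not tested.

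All 41 genes were bright on all 4 arrays, where bright means at or above the array's median over all probe sets. Among all 12393 genes 51.4% were. Each gene was read from its probe set with the highest mean. Of the 77 probe sets, 62 were bright on all arrays and 13 on none, and 7 lay below the 25th percentile, near background, on all 4. These dim probe sets belong to genes whose best probe set was bright, such as Psma1, whose others read between 3.51 and 3.88. The dimmest gene by its best probe set was Psmd7, a lid subunit that pairs with the deubiquitinase Psmd14, at 6.57, 6.64, 6.70 and 7.15.

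**Figure D1:**
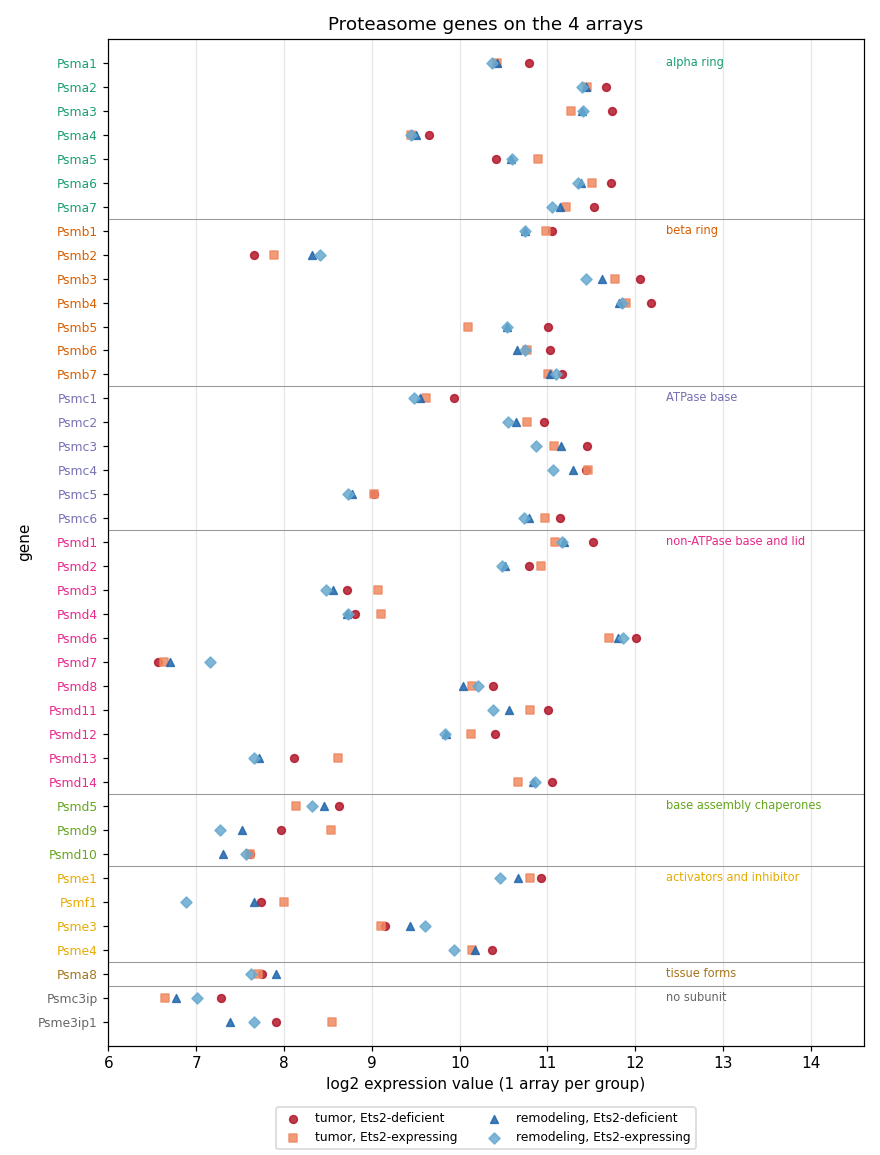
Log2 expression value (horizontal axis) of the 41 genes on the 4 arrays, 1 array per group, by role in the proteasome (gene names and labels share a colour). The tumor Ets2-deficient array holds the highest value of 27 genes on the deposited scale plotted here (15 after median centring).

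The study is about an ETS factor, so the promoters of these genes were read for an ETS motif. RefSeq promoter windows (build GRCm38.p6) were available for 34 of the 41 genes, as 37 windows since a few genes have more than 1 start. The 250 bases before each start were searched on both strands for CCGGAA, an ETS motif longer than the core GGAA. They were also searched for TGANNNNGC, which resembles the antioxidant response element bound by the proteasome regulator Nfe2l1, and for CCAAT. Overlapping matches count separately, as in Psmd4, where matches on opposite strands overlap. CCGGAA stood in 18 of the 37 windows (48.6%), against 12.0% of 32851 windows of all genes, 3189 of 21263 windows of protein-coding genes and 22.3% of those of genes bright on at least 1 array. The rings and the regulatory particle differed: 11 of 15 regulatory particle windows (73.3%) held it, and 2 of 12 core particle windows (16.7%). With the 50 bases after the start included, it was 11 of 15 and 4 of 12. Before the start, TGANNNNGC was in 37.8% of member windows and 35.2% of all windows, and CCAAT in 37.8% and 33.8%. With the 50 bases after the start, TGANNNNGC was in 54.1% of member windows, including 9 of 12 of the core particle, against 41.3% of all windows, and CCAAT in 37.8% and 37.4%. A match describes these letters and shows no binding.

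The promoters of 4 subunits are shown, 2 of each part of the particle. The reason is that they show the contrast in CCGGAA and lie on opposite sides of 0 in the tumor Ets2 comparison. They were chosen after their values were seen. Psmb5 and Psma3 are core subunits that were higher on the Ets2-deficient tumor array, and Psmd13 and Psmd2 are regulatory subunits that were lower. Most regulatory genes with CCGGAA (6 of 10) were higher there, so Psmd13 and Psmd2 do not stand for that set. Each is the 250 bases before the annotated start, 5' to 3' on the gene's strand, and capitals mark matches of any of the 3 motifs. In Psmb5 (GRCm38.p6, chr14:54617996-54618245, minus strand) the capitals are a TGANNNNGC match that starts 47 bases before the start site. In Psma3 (chr12:70974373-70974622, plus strand) they are a CCAAT that starts 139 bases before it. Psmd13 (chr7:140882144-140882393, plus strand) has CCGGAA in the last 6 bases before its start. Psmd2 (chr16:20651402-20651651, plus strand) has CCGGAA at 82 bases before the start and, on the opposite strand, at 25. Counting either strand, the shorter GGAA also stands in Psmb5 and Psma3, where it is not marked.
Psmb5: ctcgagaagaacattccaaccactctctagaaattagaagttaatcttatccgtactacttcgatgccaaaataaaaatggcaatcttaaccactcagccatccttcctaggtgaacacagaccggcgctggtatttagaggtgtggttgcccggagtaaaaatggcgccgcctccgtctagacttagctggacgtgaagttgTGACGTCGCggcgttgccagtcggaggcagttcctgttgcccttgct
Psma3: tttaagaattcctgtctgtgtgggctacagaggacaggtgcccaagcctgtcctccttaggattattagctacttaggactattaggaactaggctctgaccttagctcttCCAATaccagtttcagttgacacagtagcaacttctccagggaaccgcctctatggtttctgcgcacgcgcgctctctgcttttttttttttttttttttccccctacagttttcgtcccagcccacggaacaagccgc
Psmd13: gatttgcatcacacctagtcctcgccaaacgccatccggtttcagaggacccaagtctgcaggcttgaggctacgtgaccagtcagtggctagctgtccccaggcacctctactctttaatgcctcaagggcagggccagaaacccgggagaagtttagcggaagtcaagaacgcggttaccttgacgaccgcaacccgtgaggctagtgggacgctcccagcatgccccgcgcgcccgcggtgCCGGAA
Psmd2: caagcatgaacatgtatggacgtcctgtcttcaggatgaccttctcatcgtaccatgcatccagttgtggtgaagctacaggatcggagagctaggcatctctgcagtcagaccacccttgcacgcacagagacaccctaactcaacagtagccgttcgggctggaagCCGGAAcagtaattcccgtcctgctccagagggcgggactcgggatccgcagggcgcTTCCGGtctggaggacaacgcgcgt

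In tumor macrophages most core subunits were slightly higher on the Ets2-deficient array than on the Ets2-expressing array. Regulatory subunits lay on each side of 0, with a share above 0 near that of all genes. Of the 14 alpha and beta genes, 12 were higher, with a median log2 difference of 0.24, and Psmb5 differed most, at 0.90 (1.87-fold). Of 17 regulatory particle genes, 10 were higher (58.8%, against 53.1% of all genes) and 7 lower, with a median of 0.19. Over all 41 genes 28 lay above 0, against 53.1% of the 7225 genes that counted, those with the brighter array at or above its median. The median was 0.20 for the 41 genes and 0.03 for all that counted, so the members lay 0.16 above all genes. After each array was centred on its median, 11 of the 14 core genes and 25 of the 41 genes lay above 0. Centring shifts all genes of a comparison alike, so it cannot change the distance of 0.16 and is no check of it. In RNA from sorted cells, fewer cells of a type and less RNA per cell cannot be told apart. Between the same arrays 11 of 12 mammary epithelial markers were higher (median 0.91), as were all 6 neutrophil (1.27) and 6 proliferation genes (0.63). Of the neutrophil genes 4 counted as bright. The other marker lists had medians below 0, from -0.03 (fibroblast) to -1.42 (adipocyte). In the remodeling Ets2 comparison the 6 proliferation genes were higher too (0.94). The part of all these genes in the proteasome differences was not tested.

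The differences were small. No member passed 2-fold, against 2.99% of all genes, and 3 of 41 passed 1.5-fold, against 15.3% of all genes. Of these 3, 2 were higher, against 9.27% of all genes, and 1 was lower, against 5.99%. Their middle 50% spanned 0.32 log2 units, against 0.52 for all genes. Among probe sets of the same member gene that were bright, the pooled standard deviation of this difference was 0.30 and the median one 0.20, over 16 genes with at least 2 such probe sets. The size of the difference was above the pooled value in 16 of the 41 genes and above the median value in 28. This spread covers neither animals nor sorts.

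The catalytic subunits are Psmb5 (chymotrypsin-like), Psmb6 (caspase-like) and Psmb7 (trypsin-like). Psmb5 read 11.002 on the Ets2-deficient and 10.10 on the Ets2-expressing tumor array, and 10.54 on each remodeling array, the same to 3 decimals. So the tumor arrays lay on either side of the remodeling arrays. Psmb6 read 11.03 and 10.77 on the tumor arrays, and 10.65 and 10.74 on the remodeling arrays, again with the Ets2-deficient array first in each pair. Psmb7 read 11.16 and 11.01, and 11.03 and 11.09. In each catalytic subunit the tumor Ets2-deficient array was the highest of the 4 on the deposited scale. After median centring it was so for Psmb5 and Psmb6, and Psmb7 was highest on the remodeling Ets2-deficient array. Psmb5 has 1 probe set, so its difference of 0.90 has no second reading.

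Of the alpha ring, which gates the channel, Psma3 differed most upward, at 11.74 on the Ets2-deficient and 11.27 on the Ets2-expressing tumor array (0.47). Psma1, Psma2, Psma4, Psma6 and Psma7 were higher by 0.21 to 0.36. Psma5 ran the other way, at 10.42 and 10.90 (-0.48), but its other bright probe set read 10.21 and 10.26 (-0.05). The structural beta subunits Psmb3 and Psmb4 were higher by 0.29 and 0.28. Psmb2 was lower by 0.23, at 7.66 against 7.89. Psmb1 depended on the probe set: its brightest read 11.05 and 10.99 (0.07), and its others gave -0.49 and -0.50.

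Of the 6 ATPases that unfold substrates, Psmc3 was higher by 0.38, at 11.46 and 11.07, and Psmc1 by 0.32, at 9.94 and 9.62. Psmc2 and Psmc6 were higher by 0.19 and 0.17, and Psmc5 differed by -0.006. Psmc4 differed by -0.02 in the probe set used and by 0.68 in its other, equally bright one (11.41 and 10.73).

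The non-ATPase subunits spread in each direction. Psmd1, the large scaffold of the base, was higher by 0.43, at 11.52 and 11.09, and Psmd14, which removes ubiquitin chains from the substrate, by 0.38, at 11.05 and 10.67. The lid subunits Psmd6, Psmd8, Psmd11 and Psmd12 were higher by 0.20 to 0.31. Psmd13, another lid subunit, was lower by 0.51, at 8.11 and 8.62, with its second probe set at -0.18. The lid subunit Psmd3 was lower by 0.36 and Psmd4, a receptor for ubiquitin chains, by 0.30. The ubiquitin receptor and scaffold Psmd2 and the lid subunit Psmd7 differed by -0.14 and -0.07. Psmd13, Psmd3, Psmd4 and Psmd2 were among the 10 of 41 genes highest on the Ets2-expressing tumor array, against 25.1% of all genes. A gene lower on the Ets2-deficient tumor array cannot be highest there, so this is no separate feature.

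Base assembly chaperones also diverged. Psmd5 was higher by 0.50 (8.63 and 8.14), Psmd9 lower by 0.57 (7.96 and 8.53), and Psmd10, also known as gankyrin, read 7.61 on each. The activators Psme1, Psme3 and Psme4, which open the core particle without ubiquitin, differed by 0.12, 0.05 and 0.23, and the inhibitor Psmf1 by -0.27. The testis form Psma8 differed by 0.05. Apart from the subunits, Psmc3ip, a meiotic recombination factor, was higher by 0.63 and Psme3ip1, named for its interaction with Psme3, lower by 0.64. With Psmb5 they are the 3 genes past 1.5-fold on the deposited scale. After median centring 4 genes passed, against 15.3% of all genes. Psmb5 (0.82) was higher, and Psme3ip1 (-0.72), Psmd9 (-0.65) and the lid subunit Psmd13 (-0.59) were lower, while Psmc3ip (0.55) did not pass.

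Genes with CCGGAA in a promoter window had a median tumor Ets2 difference of 0.17 (10 of 17 above 0), and genes with a window but no CCGGAA 0.28 (14 of 17). Within the regulatory particle the medians were 0.18 with it (6 of 10 above 0) and 0.31 without it (3 of 4). Within the core particle they were -0.135 for the 2 genes with it (1 above 0) and 0.29 for the 9 without it (all above 0). Between the tumor and remodeling arrays of the Ets2-expressing groups the order was the other way, with 0.25 for genes with CCGGAA (14 of 17 above 0) and 0.05 for those without (10 of 17). In the remodeling Ets2 comparison the medians were 0.03 and 0.04, and between the tumor and remodeling arrays of the Ets2-deficient groups 0.30 and 0.34. No test of these differences was possible.

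**Figure D2:**
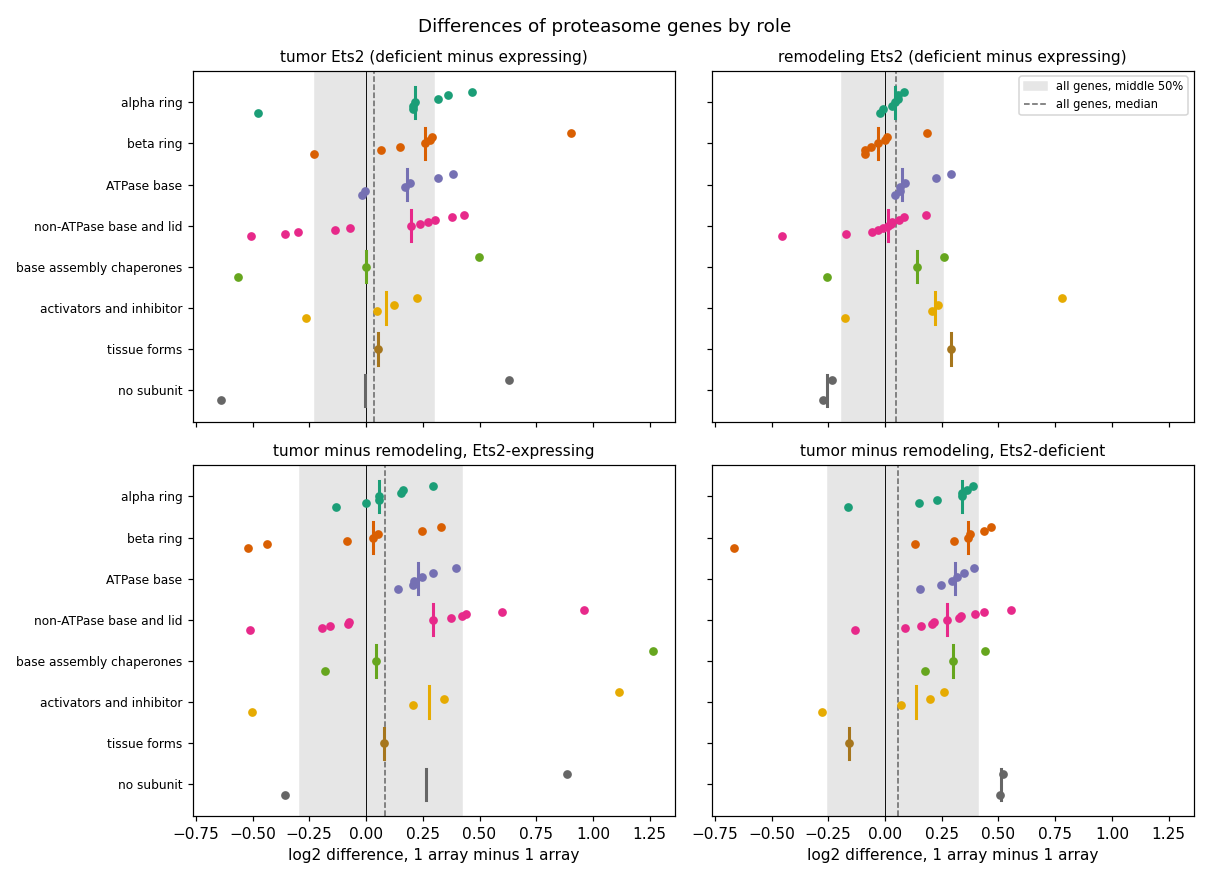
Log2 differences (horizontal axis) of the 41 genes in the 4 pairwise comparisons, by role. Points are genes, coloured bars are medians of a role, and the grey band and dashed line are the middle 50% and the median of all genes that counted. Alpha and beta genes lie mostly right of the dashed line in the tumor Ets2 panel and in the panel of the Ets2-deficient arrays, and close to 0 in the remodeling Ets2 panel.

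In remodeling macrophages the Ets2-deficient and Ets2-expressing arrays gave nearly the same proteasome values on the deposited scale, with 25 of 41 genes above 0, whereas after median centring 37 of 41 lay above 0 (75.3% of all genes). On the deposited scale the 14 core genes had a median difference of 0.004 log2 units and ran from -0.09 to 0.18, and the 17 regulatory genes had a median of 0.04. The 25 genes above 0 stand against 55.3% of the 7095 genes that counted, with medians of 0.03 for the members and 0.05 for all. After median centring these medians were 0.23 and 0.24, and that of the core particle 0.20. Their middle 50% spanned 0.12 log2 units, against 0.45 for all genes. With the brighter array required to be at or above its 75th percentile, these spans were 0.11 (28 members) and 0.35.

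Only Psmf1, the inhibitor, passed 1.5-fold among the 41 genes on these arrays, against 16.3% of all genes either way and 6.53% higher, and none passed 2-fold, against 6.48%. Psmf1 read 7.66 on the Ets2-deficient and 6.88 on the Ets2-expressing remodeling array (0.78). Its other bright probe sets gave 0.19 and -0.33, so its direction is not settled. The ATPases were all slightly higher, by 0.04 to 0.29, with Psmc3 (11.16 and 10.87) and Psmc4 (11.29 and 11.06) at the top. Psma8 was higher by 0.29, at 7.91 and 7.62. At the lower end stood Psmd7 (6.70 and 7.15, -0.45), Psme3ip1 (7.39 and 7.66, -0.27), and the chaperone Psmd10 (7.31 and 7.56, -0.25). Psme4 gave 0.23 in the probe set used, and 0.32 and -0.77 in its other ones.

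The tumor arrays were also set against the remodeling arrays of the same Ets2 label. These comparisons share arrays with those of Ets2, so their values stand side by side and are no further evidence. On the Ets2-expressing arrays the regulatory particle was higher in tumor macrophages (12 of 17 genes, median 0.25), while the core particle stood near 0 (9 of 14 higher, median 0.06). Of the 41 genes 28 lay above 0, against 55.9% of 7253 genes that counted, with medians of 0.153 for the members and 0.085 for all. With the mean of all probe sets of a gene these medians were 0.046 and 0.033, and without _x_at and _s_at probe sets 0.057 and 0.057, so the gap depends on which probe set stands for a gene. The 5 genes past 1.5-fold, all higher, were Psmd9, Psmf1, Psmd13, Psme3ip1 and Psmd3. They are 12.2% of the members, against 29.8% of all genes either way and 16.9% higher. After median centring 4 passed, without Psmd3 (0.55), against 29.5% of all genes.

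Psmd9, a chaperone of base assembly, differed most on the Ets2-expressing arrays, at 8.53 in tumor and 7.27 in remodeling macrophages (1.26, or 2.40-fold). Its other probe set, dim on all arrays, gave -0.35. Psmf1 read 7.999 and 6.88 (1.12), with its other bright probe sets at 0.24 and -0.35. These are the 2 members past 2-fold, against 11.4% of all genes either way and 6.18% higher. Psmd13 read 8.62 and 7.66 (0.96), and its second probe set gave 0.77, so here its probe sets lay the same way. Psmd3, with 1 probe set, read 9.08 and 8.48 (0.60). Lower in tumor macrophages were Psmb2 (7.89 and 8.41, -0.52), Psmd7 (6.64 and 7.15, -0.51), the nuclear activator Psme3 (9.11 and 9.61, -0.50) and Psmb5 (10.10 and 10.54, -0.44). All 6 ATPases were higher, by 0.14 to 0.40.

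On the Ets2-deficient arrays nearly every proteasome gene was higher in tumor than in remodeling macrophages on the deposited scale. The differences were close to each other: 36 of 41 genes lay above 0, against 53.7% of 7203 genes that counted, with a median of 0.30, and the middle 50% of the members spanned 0.22 log2 units, against 0.66 for all genes. After each array was centred on its median, 18 of 41 lay above 0 (30.5% of all genes) and the median was -0.02, because the median of all genes moved from 0.06 to -0.26. The members lay 0.24 above all genes, a distance that centring cannot change. All 12 mammary epithelial markers were higher too (median 4.58), and their part was not tested. On the deposited scale, by part, the medians were 0.34 for the core particle (12 of 14 above 0) and 0.30 for the regulatory particle (16 of 17). After median centring 8 of 14 and 7 of 17 lay above 0.

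The highest on the Ets2-deficient arrays was the lid subunit Psmd12, at 10.40 in tumor and 9.85 in remodeling macrophages (0.56), followed by Psme3ip1 (0.52) and Psmc3ip (0.51). Psmb5 read 11.002 and 10.54 (0.47), Psmd9 7.96 and 7.52 (0.44), and Psmb3 12.06 and 11.62 (0.44). Psmb2 alone passed 1.5-fold, against 23.7% of all genes either way and 7.76% lower, and it was lower, at 7.66 and 8.32 (-0.67). Psmb2 was also lower in the Ets2-expressing tumor array, so its tumor arrays lay below its remodeling arrays without overlap, but it has 1 probe set. Psmd7 had the same order, as did Psme3 in the probe set used, and the share of all genes with it was not counted. The other bright probe set of Psme3 read 8.63 and 8.22 on the tumor arrays, the Ets2-deficient array first. It read 8.27 and 8.51 on the remodeling arrays, so the order did not hold in it. After median centring Psme3 passed 1.5-fold too in the probe set used (-0.60), against 32.2% of all genes either way. Psme3 (-0.28), Psma5 (-0.16), Psma8 (-0.16) and Psmd7 (-0.13) were the other lower genes on the deposited scale. The other bright probe set of Psme3 gave 0.37, so its direction is not settled. Past 2-fold there was none, against 9.22% of all genes.

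The tumor Ets2-deficient array held the highest of the 4 values for 27 of 41 genes, against 32.9% of the 7473 genes bright on at least 1 array, and for 15 of 41 (19.5% of all genes) after median centring. On the deposited scale it was highest for 12 of 14 core genes, the exceptions being Psma5 and Psmb2, and for 10 of 17 regulatory genes, and after median centring for 8 of 14 and 6 of 17. On the deposited scale the tumor Ets2-expressing array was highest for 10 genes (25.1% of all genes). The remodeling Ets2-deficient array was highest for 1 (19.4%) and the remodeling Ets2-expressing array for 3 (22.6%). After median centring many more members were highest on the remodeling Ets2-deficient array, among them Psma2, Psmb7, Psmc3, Psmd6 and Psmd14. The share of all genes highest there after centring was not counted. All 6 ATPases were among the 22 of 41 genes that were lowest on the remodeling Ets2-expressing array. The share of all genes lowest there was not counted.

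The difference of the 2 Ets2 differences, tumor minus remodeling, had a median of 0.15 log2 units over the 41 genes, and -0.002 over all 7473 genes bright on at least 1 array. It lay above 0 for 27 of 41 genes, against 49.8% of all genes. The 2 Ets2 differences had opposite signs and lay at least 1.5-fold apart in 3 of 41 genes, against 20.8% of all genes. After median centring the medians of this difference were -0.13 for the members and -0.28 for all genes, so the sign of the members' median turned. Their distance of 0.15 from all genes cannot change under centring, which shifts all genes alike. Only Psmf1 reached 1 log2 unit (-1.045), against 11.4% of all genes, and its probe sets oppose each other. Psmb5 (0.90), Psmc3ip (0.86) and Psmd9 (-0.82) came next.

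**Figure D3:**
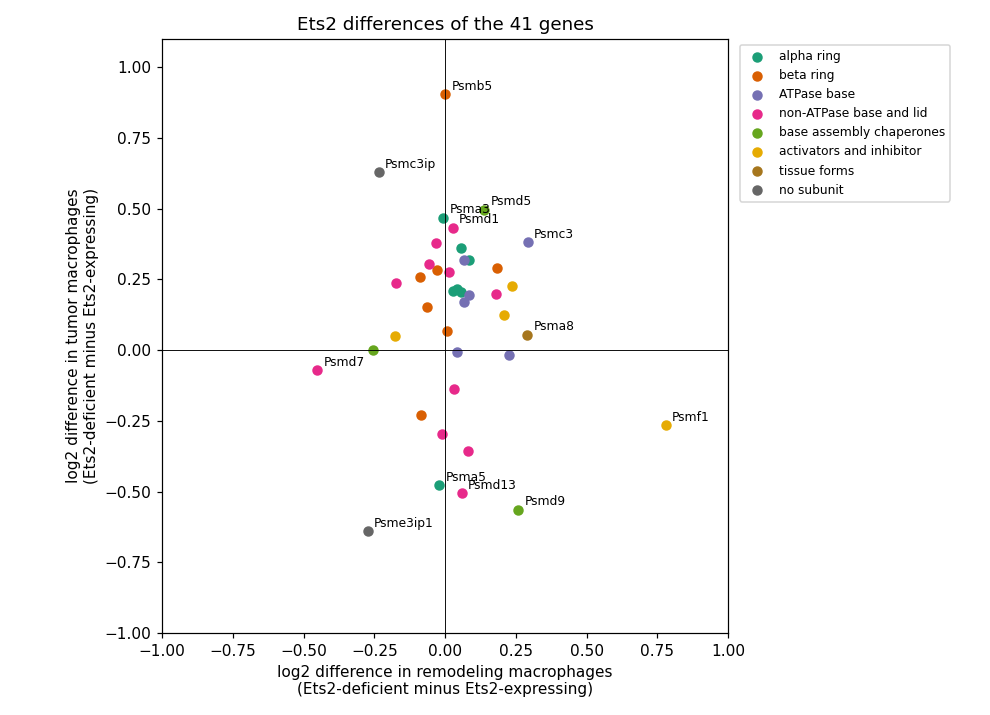
Log2 difference between the Ets2-deficient and Ets2-expressing arrays in tumor macrophages (vertical axis) against that in remodeling macrophages (horizontal axis), 1 point per gene, coloured by role. Most points form a vertical band near 0 on the horizontal axis. Psmb5 at 0.90 and Psme3ip1 at -0.64 are the ends of the vertical range, and Psmf1 at 0.78 lies far to the right.

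Probe sets of the same gene were compared as the only repeat reading on each array. For 16 genes 2 or more were bright on the brighter array of a comparison, and these shared a sign in 12 genes for the tumor Ets2 comparison, against 54.3% of 2401 such genes on the array, and in 10 genes for the remodeling one, against 60.7% of 2482. In tumor macrophages they lay on opposite sides of 0 in Psmb1, Psmc4, Psmc6 and Psmf1. Bright probe sets differed from each other by over 1 log2 unit in Psmf1 in all 4 comparisons, in Psme4 in 2 and in Psmd11 in 1. Psmd11, a lid subunit with 6 probe sets, was higher in the tumor Ets2 comparison by all of its 4 bright ones (0.20 to 0.51). Its probe sets ranged from -0.29 to 1.30 in tumor minus remodeling on the Ets2-deficient arrays, the highest coming from one that was bright on 1 array alone (6.62 and 5.32).

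**Figure D4:**
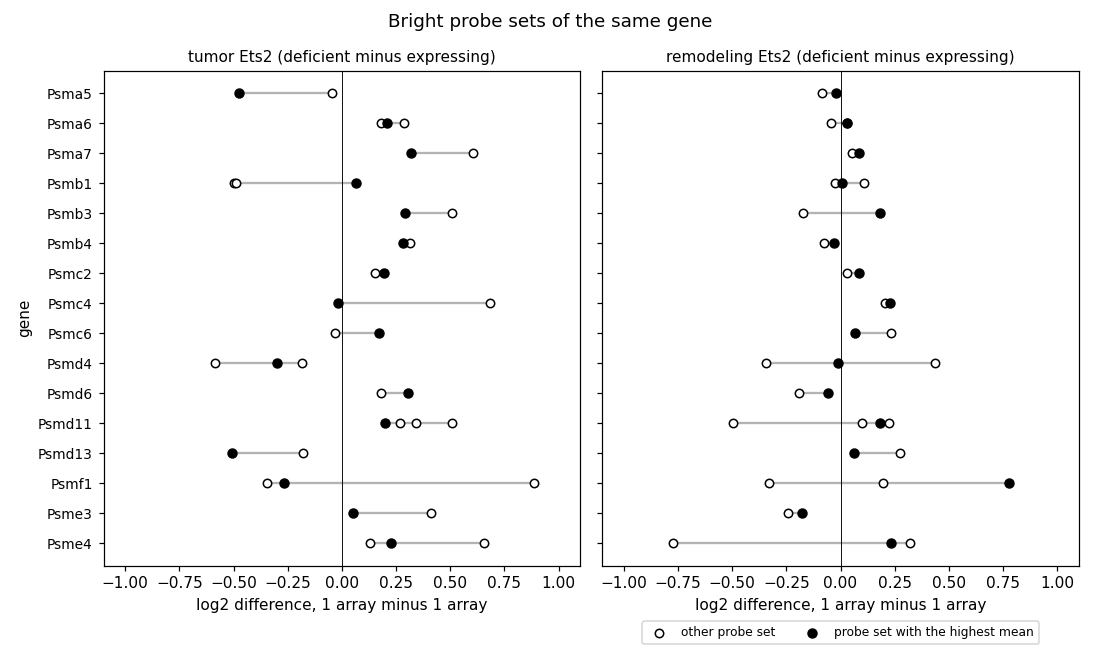
Log2 differences (horizontal axis) of the probe sets bright on at least 1 of the 4 arrays, in the 16 genes with at least 2, for the tumor Ets2 comparison on the left and the remodeling one on the right. Filled points are the probe set used for the gene, open points the others, and lines join probe sets of a gene. Psmf1 crosses 0 in each panel, and Psma7, Psmb3, Psmb4, Psmd6 and Psmd11 lie wholly right of 0 on the left. The leftmost Psmd11 point on the right was dim on both remodeling arrays and is not in the count of shared signs.

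Other genes of the pathway, from lists of names, are given next. Psmb8, the immunoproteasome subunit that replaces Psmb5, read 10.60 and 10.44 on the tumor arrays and 10.14 and 9.89 on the remodeling arrays, the Ets2-deficient array first in each pair. Psmb9, which replaces Psmb6, read 8.19 and 8.57, then 8.01 and 7.57. Psmb10, which replaces Psmb7, read 10.10 and 9.73, then 9.57 and 9.71. Between tumor and remodeling macrophages on the Ets2-expressing arrays Psmb9 differed by 0.99, Psmb8 by 0.56 and Psmb10 by 0.02. On the Ets2-deficient arrays the differences were 0.17 for Psmb9, 0.46 for Psmb8 and 0.53 for Psmb10, and after median centring -0.15, 0.14 and 0.21. In the tumor Ets2 comparison Psmb9 was lower by 0.38, whereas Psmb10 was higher by 0.37 and Psmb8 by 0.15 (0.07 after median centring).

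Of 6 assembly factors of the core particle and base, 5 were measured. On the deposited scale none passed 1.5-fold in either Ets2 comparison, against 15.3% (tumor) and 16.3% (remodeling) of all genes. None did between tumor and remodeling on the Ets2-deficient arrays, against 23.7%. Between tumor and remodeling on the Ets2-expressing arrays Psmg2 (0.62) and Psmg3 (0.81) passed it, higher, against 29.8% of all genes. Pomp, which drives the joining of core particle precursors, was higher by 0.31 in the tumor Ets2 comparison (11.64 and 11.33). Psmg3 was lower there by 0.31 and higher by 0.53 in the remodeling one. After median centring Psmg3 passed 1.5-fold in the remodeling Ets2 comparison (0.72), against 21.5% of all genes. On the Ets2-expressing arrays Psmg3 (0.765) then still passed and Psmg2 (0.576) did not, against 29.5%. Of 13 ubiquitin receptors, shuttles and deubiquitinases, 10 were measured. On the deposited scale none passed 1.5-fold in any of the 4 comparisons. The shares of all genes were 15.3% (tumor Ets2), 16.3% (remodeling Ets2), 29.8% (Ets2-expressing arrays) and 23.7% (Ets2-deficient arrays). Sem1, a small lid subunit outside the symbol rule, read 11.51, 11.53, 11.49 and 11.51, almost level.

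Nfe2l1 encodes the transcription factor that raises proteasome genes when proteasome activity falls. It read 8.69 and 8.80 on the Ets2-deficient and Ets2-expressing tumor arrays and 9.02 and 8.99 on the remodeling arrays. Of 12 genes for its activation and the Vcp segregase, 1 passed 1.5-fold in the tumor Ets2 comparison, the Vcp cofactor Nsfl1c (9.75 and 8.999, 0.75), against 15.3% of all genes, and none in the remodeling one, against 16.3%. Between tumor and remodeling on the Ets2-expressing arrays Mafg (-0.96) and Sel1l (-0.83) passed it, lower, against 29.8% of all genes. On the Ets2-deficient arrays none did, against 23.7%. These counts are on the deposited scale. After median centring Mafk (-0.78), Ngly1 (-0.71), Nfe2l1 (-0.65) and Nploc4 (-0.59) passed on the Ets2-deficient arrays, lower, against 32.2% of all genes. In the tumor Ets2 comparison Nsfl1c (0.67) and Ngly1 (-0.62) then passed, against 15.3%, and in the remodeling one Nsfl1c (0.60), against 21.5%. Ngly1, the glycanase that activates Nfe2l1, was lower by 0.54 in the tumor comparison on the deposited scale. The 6 genes for ubiquitin and its activating enzymes had no probe set naming them alone and are not analysed here.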

How the data were processed

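RNA of 4 sorted macrophage samples was amplified and hybridised to Affymetrix mouse arrays of 22690 probe sets. The log2 expression values were used as the authors deposited them. GCOS and RMA are named, without versions, in the submitters' processing notes. RMA summarises several probes into 1 value, which can compress differences of bright genes. Probe sets were named by the platform annotation. All 77 member probe sets matched a current gene by Entrez identifier, and 0 symbols changed. A gene took its probe set with the highest mean, and counted in a comparison where the brighter array was at or above its median. Differences are 1 array minus 1 array, called at 1.5-fold or 2-fold, with no test. The members, gene lists and motifs were chosen with earlier results of these data known. All members may be named. Values are given for catalytic subunits, the 3 highest and 3 lowest per comparison, and genes past 1.5-fold. Alternatives were other scalings, brightness limits, probe set rules, member lists and folds. The procedure was tested on simulated data. Python 3.11.15, pandas 2.3.3 and NumPy 2.4.6 were used. The number of arrays limits the precision.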

Additional observations from a re-analysis of the deposited data

Results flagged for a closer look

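In 3 genes the Ets2 differences of tumor and remodeling macrophages had opposite signs and lay at least 1.5-fold apart, or 3 of 41 genes against 20.8% of all genes, so the count is no excess. The difference between them was not tested, since each group has 1 array. It was -1.045 log2 units for the inhibitor Psmf1 (-0.27 in tumor and 0.78 in remodeling macrophages), whose 3 bright probe sets gave -1.045, -0.54 and 1.22. It was 0.86 for Psmc3ip (0.63 and -0.23, or 7.28 and 6.65 on the tumor arrays and 6.77 and 7.01 on the remodeling arrays, the Ets2-deficient array first in each pair). It was -0.82 for Psmd9 (-0.57 and 0.26), whose second probe set, dim on all arrays, gave 0.47. Psmc3ip and Psmd9 were among the dimmer of the 41 genes. A count of opposite signs includes genes whose true differences are near 0.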

How the results depend on the processing

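No paired analysis was possible because each group has 1 array. After median centring the members' median in tumor minus remodeling macrophages on the Ets2-deficient arrays was -0.019, 18 genes lay above 0 and 2 passed 1.5-fold, 15 genes were highest on the tumor Ets2-deficient array, and the difference of the Ets2 differences was -0.125. Centring on the 18 hybridization controls gave 0.076 for that tumor minus remodeling median. The members' median in the remodeling Ets2 comparison moved from 0.033 to 0.227 (median centring) and 0.233 (hybridization controls), as all genes did (0.241 and 0.247). The core particle's median turned sign, from near 0, in that comparison without _x_at and _s_at probe sets (-0.004), and between the Ets2-expressing tumor and remodeling arrays with hybridization controls (-0.021). The distance of the members' median above that of all genes was read over all 10 settings. It was 0.14 to 0.197 in the tumor Ets2 comparison and -0.027 to 0.004 in the remodeling one. Between tumor and remodeling it was 0 to 0.136 for the Ets2-expressing arrays and 0.229 to 0.327 for the Ets2-deficient arrays. Median centring and centring on hybridization controls shift all genes alike, so those settings cannot change this distance. Counts past 1.5-fold are small. With the 75th percentile limit they were 1 of 31 (tumor Ets2), 0 of 28 (remodeling Ets2), 1 of 31 (Ets2-expressing) and 0 of 29 (Ets2-deficient). The shares of all genes were 9.2%, 10.0%, 22.6% and 17.7%. With subunits alone the counts were 1, 0, 2 and 1 of 31, against 15.3%, 16.3%, 29.8% and 23.7%. At 2-fold the counts were 0, 0, 2 and 0 of 41, against 2.99%, 6.48%, 11.4% and 9.22%. Psmf1 no longer passed in the remodeling comparison with the mean of all probe sets (0 genes, against 14.0% of all genes). Nor did it pass without _x_at and _s_at probe sets (0 genes, against 16.3%). The latter setting gave 2 genes on the Ets2-deficient arrays, against 23.7% of all genes. Alternatives for the counts above 0 and highest, and for the core particle, were chosen after seeing the data. Other causes of these shifts were not tested.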
